A study of Rattus norvegicus with 16 samples.

Results

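The comparison described here set 4 diaphragms of sham-operated, ventilated rats (S-V12) against 4 diaphragms of non-ventilated rats (CON), across every transcript cluster of a whole-transcript microarray. These 8 arrays were 8 of the 16 in the series, 1 array per rat, and were chosen by their labels alone. A transcript cluster is the set of probes that the array assigns to 1 gene or transcribed locus, and 23188 clusters were compared after control probe sets were left out. All animals were male Wistar rats of 14 to 16 weeks, and none carried a genetic change. CON diaphragms were taken straight after anaesthesia. S-V12 rats had a tracheostomy, a midline abdominal incision and electrodes placed in the diaphragm but left without current, and were then ventilated for 12 h under anaesthesia with supplemental oxygen. V12 rats were ventilated for 12 h with the tracheostomy but no abdominal surgery, and E-V12 rats had the same surgery as S-V12 with electrical stimulation of the diaphragm. Anaesthesia was isoflurane followed by urethane, and atropine was given. S-V12/CON therefore held ventilation, anaesthesia, tracheostomy, laparotomy, electrodes, oxygen and 12 h of elapsed time together, which cannot be told apart in it. S-V12/V12 is the contrast that leaves ventilation and elapsed time equal, with laparotomy, electrodes and oxygen still joined. The study's methods say that tissue around the electrodes was removed in preparing the specimen, and that muscle of the whole diaphragm was minced. Whether tissue next to the electrodes was part of the samples cannot be told from this.

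The diaphragm is the main muscle of inspiration and contracts without pause throughout life, so its fibres are rich in mitochondria. When a ventilator takes over breathing the muscle is unloaded, and it is known to lose protein through the ubiquitin and proteasome system and through autophagy, and to produce more reactive oxygen in its mitochondria. Surgery and tissue injury raise interleukin-6 and glucocorticoids, which act on muscle through the transcription factors STAT3 and the glucocorticoid receptor.

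Values are the deposited log2 signals, so a difference of 1 is a factor of 2. A gene was called when limma's adjusted p was below 0.05 over all 23188 clusters, and errors are SE unless named otherwise. A gene below the array's background was one whose signal lay under the highest background control entry on all 4 arrays of a group. Array medians lay between 5.57 and 5.73, and between 33.0% and 40.9% of clusters lay above background, CON replicate 3 having the lowest share. The lowest correlation between 2 arrays of a group was 0.978, and no pair of arrays held identical values. Labelling spikes had a mean of 7.09 ± 0.40 in CON and 6.99 ± 0.14 in S-V12 (SD, n = 4 each, two-sided exact permutation p = 0.743, the smallest possible being 0.0286). On the V12 arrays they lay between 5.93 and 6.75, under every S-V12 array (6.86 to 7.20). Array medians were 5.63 to 5.73 in V12 and 5.57 to 5.61 in S-V12. What these gaps mean for S-V12/V12 was not tested. Nothing in the labels places the arrays in batches. The 12 skeletal muscle fibre markers measured, which include Acta1 and Ckm, were above background in both groups and none of them was called. Acta1 and Ckm sat at each array's own ceiling in both groups, 19.73 to 19.91 in CON and 19.93 in S-V12. Their estimates (0.08 each) are the difference of those ceilings, so no rise in them could be seen.

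In S-V12/CON, 2774 clusters (12.0%) were higher and 2970 (12.8%) were lower, which is 24.8% of those tested. All counts over gene lists below stand against these shares, and the lists were chosen with earlier results of these data known. The CON and S-V12 arrays did not overlap at 5566 clusters (24.0%), of which 2723 (11.7%) were higher in S-V12 and 2843 (12.3%) lower. The changes were close to balanced in number but not in size. Of the called clusters, 1576 rose (6.80% of all tested) and 1382 fell (5.96%) by a factor of 2 or more. At a factor of 16 the counts were 115 up and 16 down, and at a factor of 64 they were 39 up and 0 down. At the study's own thresholds, an unadjusted p and a fold of 2, the counts were 1584 (6.83%) and 1394 (6.01%). The median change over all clusters was -0.04. S-V12/V12 held 1866 higher (8.05%) and 1544 lower clusters (6.66%), and V12/CON held 1780 higher (7.68%) and 2011 lower (8.67%). V12/CON and S-V12/CON share the CON arrays, so their values are given side by side and differences between them are taken from S-V12/V12. In S-V12/V12 the 10 highest differences among named genes called in both contrasts were those of Socs3, Thbd, Thbs1, Ptx3, Ehd4, Slc39a14, Cd93, Slc7a5, Scn3b and Pvr (3.59 to 5.33), and the 10 lowest those of Asb2, Uqcr11, Psenen, Tmod4, Hba-a1, Ndufb3, Atp5mc2, Polr2l, Rpl38 and Commd3 (-2.15 to -1.93). Of these 20 genes Psenen, a subunit of gamma-secretase, had the weakest S-V12/CON (-0.66, adjusted p = 0.0451), a call lost without any S-V12 array, without CON replicate 2, 3 or 4, without V12 replicate 2 or 4 and without E-V12 replicate 2 or 3 (adjusted p up to 0.159). Some other ways of processing lost it too (adjusted p up to 0.232). Among the 20 largest rises in S-V12/CON 5 clusters had no gene symbol, including the largest of all (13.80), and among the 20 largest falls 7 had none, including the largest (-5.56).

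**Figure D1:**
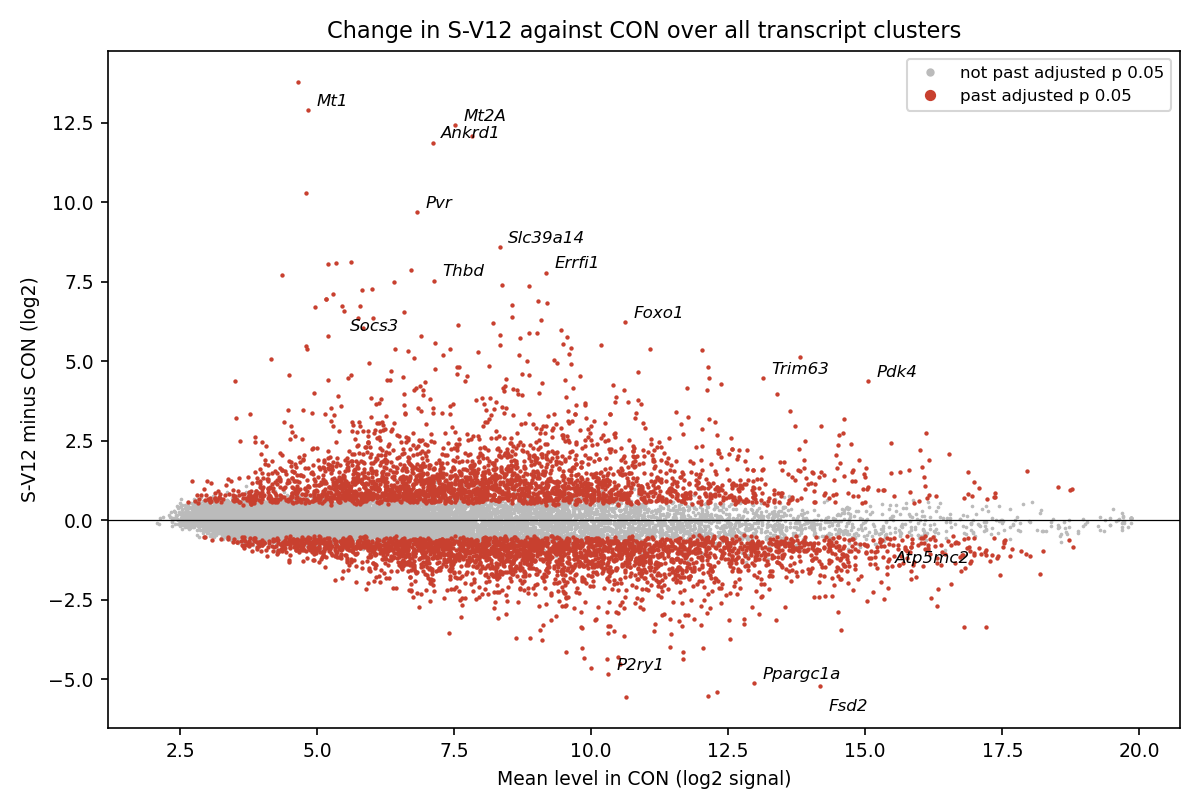
Change in S-V12/CON (log2, vertical axis) against the mean CON level (log2, horizontal axis), 1 point per transcript cluster, with called clusters in red and the others in grey. The rises reach 13.80 and the falls -5.56, while the counts in each direction are 2774 and 2970.

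The leading named genes of the comparison were the metallothioneins, small cysteine-rich proteins that bind zinc and copper. Mt1 stood at 4.51, 4.80, 5.61 and 4.44 on the 4 CON arrays and at 18.09, 17.78, 17.64 and 17.44 on the 4 S-V12 arrays. It was below background on every CON array and far above it on every S-V12 array, a rise of at least 2200-fold (fitted change 12.90 ± 0.26, adjusted p = 3.13e-20). Mt2A went from 7.41, 8.30, 7.53 and 6.80 in CON to 19.93 on each S-V12 array. That is the ceiling of the scale, so its rise of 12.42 ± 0.22 (adjusted p = 3.12e-21) is a lower bound, at least 5470-fold. Neither gene was called in S-V12/V12 (-0.73 for Mt1, adjusted p = 0.0606, and 0.04 for Mt2A, which was at or near the ceiling in V12 as well). The 250 bases before the start of each are shown because both hold several copies of the motif through which zinc acts, TGCACNC or TGCGCNC on either strand, read by the zinc-sensing factor MTF-1. Capitals mark the matches. The sequences are those of RefSeq on GRCr8, Mt1 at chr19:10832976-10833225 and Mt2A at chr19:10838709-10838958, both on the minus strand and written 5′ to 3′ along the gene.
Mt1: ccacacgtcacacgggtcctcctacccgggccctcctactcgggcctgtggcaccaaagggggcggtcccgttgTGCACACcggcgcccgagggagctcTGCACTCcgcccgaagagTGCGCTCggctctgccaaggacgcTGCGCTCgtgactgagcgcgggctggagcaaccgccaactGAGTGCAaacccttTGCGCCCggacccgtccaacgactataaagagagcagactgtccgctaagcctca
Mt2A: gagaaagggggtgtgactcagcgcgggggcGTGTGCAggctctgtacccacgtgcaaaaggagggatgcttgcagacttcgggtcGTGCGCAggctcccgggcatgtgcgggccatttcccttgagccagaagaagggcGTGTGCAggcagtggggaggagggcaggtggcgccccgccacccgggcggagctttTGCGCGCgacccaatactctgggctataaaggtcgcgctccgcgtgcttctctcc
The Mt1 window holds 6 matches, 5 on the gene's strand and 1 on the other, lying between 55 and 176 bases before the start, and the Mt2A window holds 4, lying between 55 and 220 bases before it. At least 1 match is found in 20.6% of 33469 rat windows of this length, and 5 or more in 0.0747%. Sequence alone says nothing about binding in these samples.

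Several zinc transporters rose as well. Slc39a14, which encodes ZIP14, an importer of zinc, iron and manganese induced in acute inflammation, stood at 8.37, 8.29, 8.44 and 8.23 in CON and at 16.95, 16.98, 16.62 and 17.13 in S-V12. The arrays of each group lay within 1 log2 unit of each other and the groups were far apart, a 385-fold rise (8.59 ± 0.35, adjusted p = 3.56e-14). Slc39a14 was also 4.0 higher in S-V12 than in V12 (adjusted p = 4.23e-07), where V12/CON was 4.59. The related importer Slc39a8 (ZIP8) rose by 4.57, Mtf1 itself by 1.34 and the zinc transporter Slc30a4 by 1.83. Slc30a1, the exporter at the cell surface, fell by 0.93 (adjusted p = 0.0184), a call that was lost without CON replicate 1, CON replicate 2, S-V12 replicate 1 or S-V12 replicate 3 (adjusted p = 0.0814, 0.0736, 0.0566 and 0.0531), and its groups overlapped. Of 26 measured metallothioneins and zinc transporters, 12 were higher and 1 lower, and the other 13 were not called. Of the 26, 9 were below background in both groups.

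Beyond zinc, the leading rises included the sarcomere gene Ankrd1, the adhesion receptor gene Pvr and the thrombomodulin gene Thbd. Ankrd1, a titin-binding protein of the stressed sarcomere, read 6.10, 5.59, 6.35 and 10.40 in CON and 19.16, 18.76, 19.18 and 18.86 in S-V12. CON replicate 4 stood well above the other CON arrays, and far below the lowest S-V12 array. The rise of 11.88 ± 0.77 was 3760-fold (adjusted p = 7.34e-11), a ratio to a CON mean in which 3 of 4 arrays were below background. Ankrd1 was 3.02 higher in S-V12 than in V12 (adjusted p = 0.00945). Its relative Ankrd2 rose 114-fold and Csrp3, the muscle LIM protein of the Z-disc, 10.4-fold. Pvr, a cell-surface adhesion receptor of the nectin family, went from 6.72, 6.46, 6.46 and 7.69 to 16.69, 16.39, 16.68 and 16.37 (831-fold, adjusted p = 1.21e-14, with 2 CON arrays below background). It too was higher in S-V12 than in V12, by 3.59. Thbd encodes thrombomodulin, the surface receptor that turns thrombin towards anticoagulation. Its CON values were 6.06, 7.68, 7.76 and 7.03 and its S-V12 values 15.23, 14.62, 15.08 and 13.76, a 186-fold rise. Of this 7.54 log2 units, V12/CON showed 2.45, and S-V12/V12 was 5.08 (adjusted p = 5.38e-07). The list of coagulation, fibrinolysis and vessel tone that holds Thbd was mixed, with 8 of 25 higher and 5 lower (median 0.34), the 5 becoming 3 without CON replicate 1, S-V12 replicate 1 or S-V12 replicate 3.

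The remaining leading rises included several regulators. Runx1, a transcription factor that denervated muscle switches on, rose 182-fold, from 6.18 to 6.77 in CON (3 arrays below background) to 13.82 to 13.98 in S-V12. Tgif1, a repressor of TGF-beta signalling, rose at least 97.2-fold and Errfi1, a feedback inhibitor of the EGF receptor, 222-fold. Zfp36 (tristetraprolin), which marks AU-rich mRNAs for decay, rose 236-fold, with 3 CON arrays below background. Myc, below background in CON, rose at least 85-fold, Gadd45a, a growth arrest gene of atrophying muscle, 167-fold, and H6pd, which supplies NADPH inside the endoplasmic reticulum, 170-fold. The fibrinogen-like protein Fgl2 rose at least 99.1-fold. Gadd45a (0.49, adjusted p = 0.152) and Zfp36 (1.07, adjusted p = 0.0672) were not called in S-V12/V12, while Runx1 (2.02), Errfi1 (1.73), Tgif1 (1.95), Myc (1.98) and H6pd (2.12) were all higher in S-V12 at adjusted p between 0.000147 and 0.00233.

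**Figure D2:**
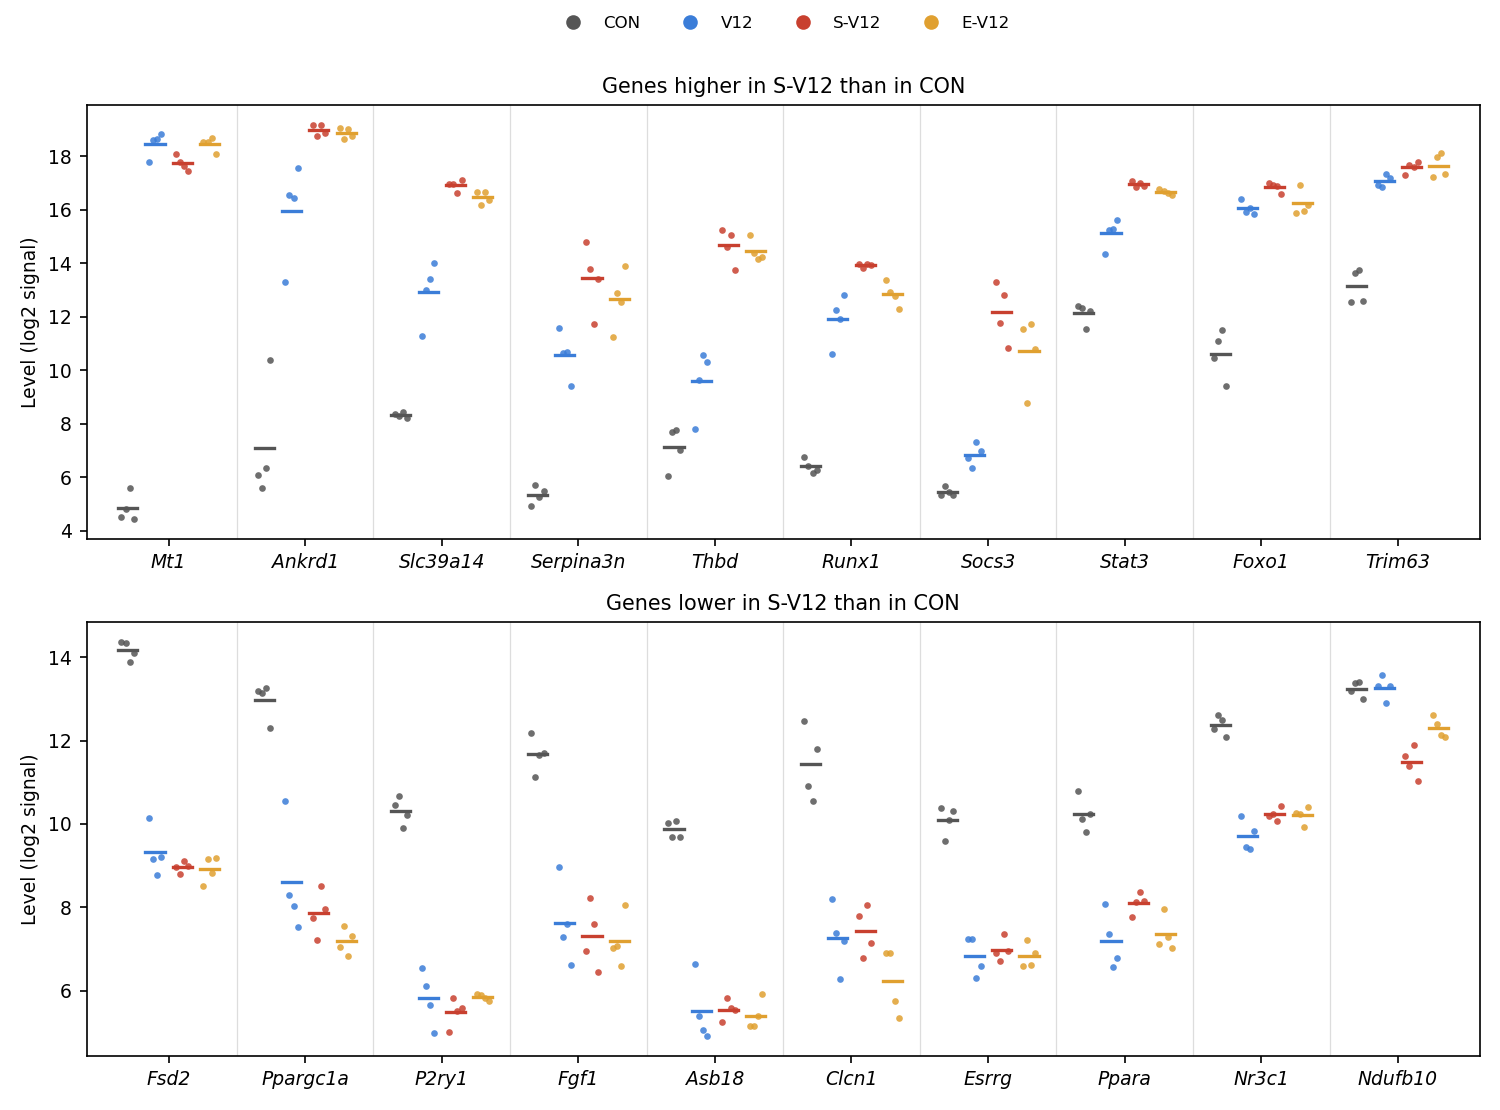
Log2 level (vertical axis) of 20 genes on each of the 16 arrays, 1 point per array by group, with group means as bars. For the 10 genes in the upper row the S-V12 arrays lie above the CON arrays and for the 10 in the lower row below them, with no overlap.

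The largest falls took in a coactivator of mitochondrial biogenesis, a chloride channel, the ADP receptor and a growth factor. Fsd2, a muscle gene, read 14.37, 14.34, 13.89 and 14.10 in CON and 8.97, 8.80, 9.12 and 8.98 in S-V12, a 37.0-fold fall (-5.21 ± 0.24, adjusted p = 2.38e-13). Ppargc1a encodes PGC-1 alpha, the coactivator that drives mitochondrial biogenesis. Its values were 13.19, 13.15, 13.26 and 12.30 in CON and 7.75, 7.22, 8.50 and 7.95 in S-V12. The arrays of the groups did not overlap, and the fall was 34.8-fold (-5.12 ± 0.43, adjusted p = 5.42e-09). P2ry1, the ADP receptor, went from between 9.90 and 10.68 in CON to below background in S-V12, a fall of at least 14.2-fold. The Wnt inhibitor Dkk2 fell at least 11.4-fold, the growth factor Fgf1 20.7-fold and the small heat shock protein Hspb3 at least 13.9-fold. Asb18 and Asb10, SOCS-box proteins of the kind that recruit ubiquitin ligases, fell at least 10.5-fold and 10.2-fold, and Trim35 fell 17.5-fold. Dusp10, a phosphatase of the stress kinases p38 and JNK, fell 16.3-fold, and Clcn1, the chloride channel that sets the resting conductance of muscle, 15.9-fold. Eepd1 fell at least 8.29-fold, Angptl2 at least 5.29-fold, Atp1b4 at least 4.41-fold and Gpm6a 12.4-fold. Most of these falls were not called in S-V12/V12. Of the 15, only Eepd1 (-0.90), Asb10 (-1.65) and Gpm6a (-1.78) were lower in S-V12 than in V12, and Trim35 was higher (0.77, adjusted p = 0.025). Dkk2, Atp1b4 and Angptl2 were already below background on all 4 V12 arrays, and P2ry1 and Asb18 on 3. A further fall in these genes could hardly be seen. Eepd1 was below background on 3 V12 arrays and all 4 S-V12 arrays, so its difference lies mostly within background.

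The Ppargc1a window is shown because it holds the cyclic AMP response element TGACGTCA, in capitals, 181 bases before the start. It is the RefSeq sequence at chr14:63634058-63634307 of GRCr8, plus strand, and 1.59% of rat windows hold this motif.
Ppargc1a: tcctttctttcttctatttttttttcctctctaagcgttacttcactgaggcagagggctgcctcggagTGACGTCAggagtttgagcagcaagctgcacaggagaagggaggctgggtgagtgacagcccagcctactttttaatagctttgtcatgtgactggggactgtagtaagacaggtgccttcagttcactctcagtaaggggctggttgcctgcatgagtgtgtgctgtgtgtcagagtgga
Of the 30 leading genes, 22 had a window in the table. Among them 6 held a metal response motif, 4 the STAT motif TTCNNNGAA (7.67% of all windows), 2 the AP-1 motif TGANTCA (6.34%), 4 the hypoxia core ACGTG (16.6%) and 1 the E-box CACGTG (5.59%), which itself contains ACGTG. None held the FOXO motif GTAAACA (3.21%) or the NF-kB motif (1.3%). All were searched on both strands.

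Genes of interleukin-6 signalling and the acute phase formed the next group. Interleukin-6 family cytokines bind receptors that share gp130 (Il6st), JAK kinases then activate STAT3, and SOCS3 shuts the signal off. Socs3 was below background on all CON arrays (5.34, 5.66, 5.46 and 5.35) and read 13.29, 11.77, 12.82 and 10.85 in S-V12. The S-V12 arrays were spread over more than 2 log2 units, all of them above every CON array, and the rise was at least 46.7-fold (6.73 ± 0.49, adjusted p = 5.32e-10). Of all named genes called in both contrasts Socs3 had the largest S-V12/V12, 5.33 (adjusted p = 5.46e-07), and V12/CON was 1.40 and not called (adjusted p = 0.0558). Stat3 rose 28.5-fold, from 12.40, 12.34, 11.55 and 12.23 to 17.08, 16.84, 17.02 and 16.90. The receptors rose as well, Il6r 27.2-fold, Osmr 10.2-fold and Il6st 5.02-fold, as did the kinase Jak2 (4.51-fold), and all 5 were also higher in S-V12 than in V12 (by 0.90 to 2.10). Cebpd, an acute phase transcription factor, rose 70.4-fold, with V12/CON at 5.97 and S-V12/V12 at 0.17 (adjusted p = 0.709). The ligand gene Il6 passed the test (1.13, adjusted p = 0.000459) but was not above background on any CON or S-V12 array (means 4.18 and 5.31). The leukaemia inhibitory factor receptor Lifr fell 3.53-fold, Stat5a 2.10-fold and Stat5b 1.73-fold. Of 35 measured genes of the pathway 13 were higher and 5 lower (median change 0.32), against 12.0% and 12.8% of all clusters, and in S-V12/V12 the counts were 12 and 1. Of the 35, 8 were below background in both groups.

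Serpina3n, the acute phase protease inhibitor, was the leading secreted protein. It stood at 4.91, 5.70, 5.27 and 5.48 in CON, below background, and at 14.79, 13.79, 11.74 and 13.42 in S-V12, at least 111-fold higher (8.09 ± 0.53, adjusted p = 7.07e-11). S-V12 replicate 3 was the lowest of its group, and no array overlapped. S-V12/V12 was 2.85 (adjusted p = 0.000672). Its window is shown because it holds 1 STAT motif, TTCCCAGAA, in capitals, 123 bases before the start (RefSeq, GRCr8, chr6:129088142-129088391, plus strand). The other leading genes with this motif, Fsd2, Fgf1 and Atp1b4, were all among the largest falls, and 7.67% of all windows hold it. Whether the motif bears on the rise of Serpina3n was not tested.
Serpina3n: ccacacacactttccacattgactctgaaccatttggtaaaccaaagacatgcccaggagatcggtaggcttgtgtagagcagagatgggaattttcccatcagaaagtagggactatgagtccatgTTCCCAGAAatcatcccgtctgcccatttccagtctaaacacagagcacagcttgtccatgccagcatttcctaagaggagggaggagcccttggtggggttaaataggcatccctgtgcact
Timp1, the inhibitor of matrix metalloproteases, rose at least 33-fold, the fibrinogen chain Fgg 93.5-fold and the lipopolysaccharide-binding protein Lbp 11.6-fold. The pentraxin Ptx3 rose at least 5.99-fold, and S-V12/V12 was 4.07 (adjusted p = 5.61e-06) where V12/CON was 0.99 and not called (adjusted p = 0.18). Ptx3 was below background on all 4 CON and all 4 V12 arrays, so both of these differences are taken from background levels. The copper carrier Cp rose 9.65-fold with no call in S-V12/V12 (0.12, adjusted p = 0.793). Of 27 measured acute phase and secreted defence genes 15 were higher and 0 lower (median 1.18), and 10 were higher in S-V12 than in V12.

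Receptors and adaptors of the Toll-like and tumour necrosis factor pathways also rose. Myd88, the adaptor shared by interleukin-1 and Toll-like receptors, rose 34.3-fold, Tnfrsf12a, the receptor of the cytokine TWEAK, 28.6-fold and Tnfrsf1a 12.6-fold. Rela, an NF-kB subunit, rose 6.08-fold, its inhibitor Nfkbia 3.47-fold and the endonuclease Zc3h12a, which degrades cytokine mRNAs, at least 4.62-fold. Tlr3, a sensor of double-stranded RNA, fell at least 1.42-fold and was the 1 lower gene among 31 measured, of which 13 were higher (median 0.55). The chemokine Ccl2, which attracts monocytes, read 5.42, 6.41, 5.85 and 7.28 in CON and 9.06, 8.25, 10.35 and 8.82 in S-V12, 7.36-fold higher with no overlap (adjusted p = 0.000639). Cxcl12 fell 3.57-fold. Cxcl1 and Cxcl11 passed the test from CON levels below background, too low for a fold to be given. Of 28 chemokine and adhesion genes 15 were below background in both groups, 12 were higher and 3 lower, and the 3 became 1 without CON replicate 3 or S-V12 replicate 1, 3 or 4.

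Markers of macrophages were higher beside these genes. Of 15 measured, 10 rose and none fell (median 1.13), and the log2 of their summed signal lay between 10.7 and 12.3 in CON and between 14.2 and 14.9 in S-V12. The lysozyme Lyz2 rose 8.38-fold, the hyaluronan receptor Lyve1 7.87-fold, and the scavenger receptors Cd163 and Mrc1 5.30-fold and 5.24-fold. Cd68, a defining marker, was below background in CON and rose at least 1.53-fold. Lyz2 was also higher in S-V12 than in V12 (2.34, adjusted p = 0.000509), whereas Cd163, Mrc1, Lyve1 and Cd68 were not called there (differences 0.31 to 0.64). Of the 11 neutrophil markers 9 were below background in both groups, S100a8 among them, and of the 10 lymphoid markers 9 were. In bulk tissue more cells of a type and more RNA per cell cannot be told apart, and the part of macrophages in the rises above was not tested.

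**Figure D3:**
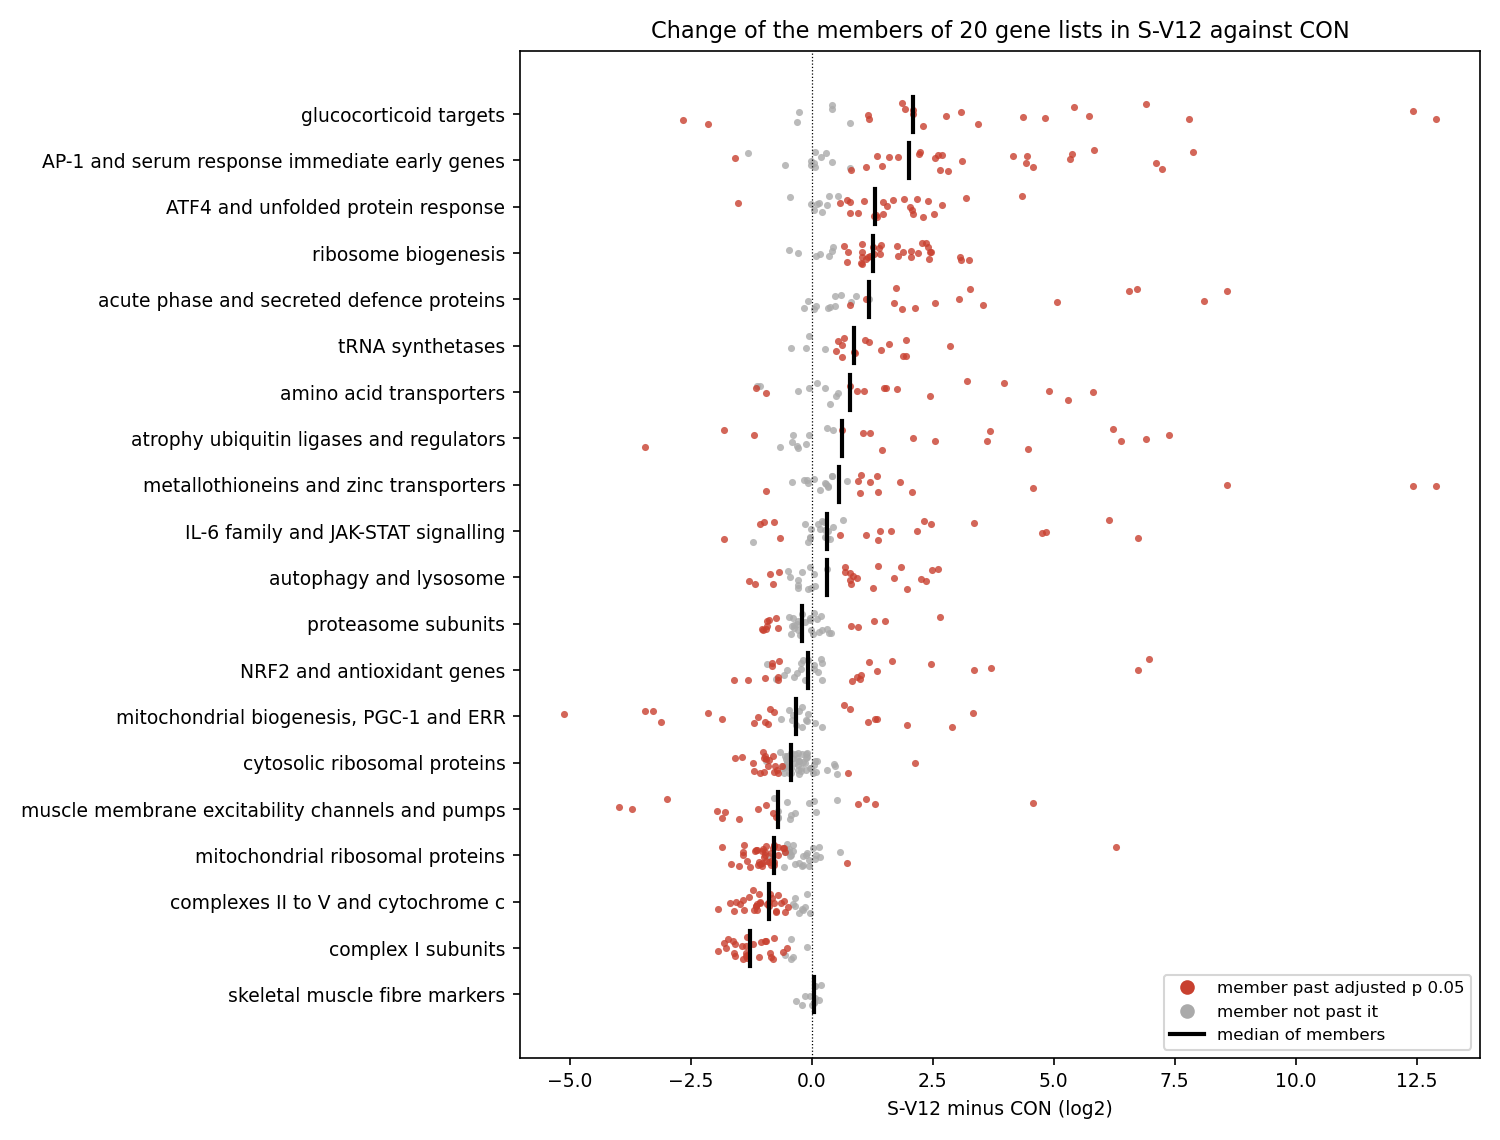
Change in S-V12/CON (log2, horizontal axis) of every measured member of 20 gene lists, 1 point per gene, red where called and grey where not, with the list median as a black bar. The medians run from 2.10 for glucocorticoid targets to -1.27 for complex I, and some genes, the metallothioneins among them, sit in more than 1 list.

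Immediate early genes, which serum, stretch and injury switch on within minutes, were raised after 12 h. Of 36 measured, 24 were higher and 1 lower (median 2.0), the 1 lower gene becoming 2 without CON replicate 2. The AP-1 subunit Junb was below background in CON (4.66, 4.90, 5.55 and 6.05) and read 12.79, 12.17, 12.74 and 11.92 in S-V12, at least 54.6-fold higher. Egr1 rose 57.3-fold although CON replicate 4, at 9.98, stood more than 2 log2 units above the other CON arrays. Klf6 rose 41.8-fold, Fos 5.86-fold, Jun 2.54-fold and Ccn1, a secreted target of stretch, 18.0-fold, and Maff and Csrnp1 rose at least 16.8-fold and 5.38-fold. Atf3 rose 3.44-fold, but its groups overlapped. Its values were 8.11, 7.74, 7.91 and 10.73 in CON and 10.78, 10.38, 10.71 and 9.74 in S-V12, and CON replicate 4 alone among the CON arrays reached the S-V12 range. In S-V12/V12, 22 of the 36 were higher and 0 lower (median 1.18). Fos and Jun were called in S-V12/V12 (2.03 and 1.11) and not in V12/CON (0.52, adjusted p = 0.305, and 0.23, adjusted p = 0.66).

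Most measured targets of the glucocorticoid receptor rose, in V12/CON as in S-V12/CON. The receptor binds cortisol-like hormones and directly switches on a set of genes in muscle. Fkbp5, its own chaperone and feedback target, read 9.99, 9.84, 9.98 and 8.74 in CON and 14.97, 15.04, 14.92 and 15.29 in S-V12, a 42.7-fold rise with the S-V12 arrays within 1 log2 unit of each other. Pdk4, which closes pyruvate off from the mitochondria, rose 20.6-fold, Tsc22d3 (GILZ) 8.46-fold, glutamine synthetase (Glul) 6.80-fold, Zbtb16 3.78-fold and Klf9 2.25-fold. Per1 rose 10.8-fold, its CON replicate 1 (11.87) standing more than 2 log2 units above the other CON arrays (at most 9.0). The receptor gene Nr3c1 fell 4.41-fold, from 12.27, 12.62, 12.49 and 12.09 to 10.19, 10.23, 10.06 and 10.43, and the mineralocorticoid receptor gene Nr3c2 fell 6.32-fold. Of 25 measured targets, Mt1 and Mt2A included, 18 were higher and 2 lower (median 2.10), the 2 being the receptor genes. V12/CON gave 17 and 2 (median 2.12), and only 7 were higher in S-V12 than in V12 (median 0.27). Sgk1, a kinase that stress also induces, was one of these (2.38, adjusted p = 0.000483). For Fkbp5, Pdk4, Tsc22d3, Zbtb16 and Klf9 the S-V12/V12 differences lay between -0.21 and 0.27 and none was called.

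Of 25 measured ubiquitin ligases and regulators of atrophy 13 were higher, 3 lower and 9 not called (median 0.62). Trim63 (MuRF1), the ligase that targets myosin and other thick filament proteins, read 12.54, 13.65, 13.75 and 12.61 in CON and 17.32, 17.69, 17.60 and 17.79 in S-V12, 22.0-fold higher (4.46 ± 0.27, adjusted p = 1.92e-11). Fbxo32 (atrogin-1) read between 16.41 and 16.69 in CON and between 18.27 and 19.00 in S-V12, a 4.27-fold rise. Foxo1, which drives both, went from 10.46, 11.11, 11.51 and 9.41 to 17.00, 16.92, 16.89 and 16.61 (75.1-fold), and Foxo3 rose 5.81-fold. Cblb, a ligase that degrades the insulin receptor substrate, rose 84.4-fold, the cell cycle inhibitor Cdkn1a 120-fold, and myostatin (Mstn), the inhibitor of muscle growth, 12.2-fold. Asb2 fell 10.9-fold, Trim55 (MuRF2) 3.49-fold and Acvr2b, the myostatin receptor, at least 1.55-fold. Trim63, Fbxo32, Foxo1 and Mstn were not called in S-V12/V12 (-0.60 to 0.79), Cblb (1.44), Cdkn1a (1.32) and Foxo3 (1.27) were higher in S-V12, and Asb2 was lower (-2.15, adjusted p = 0.00115).

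Autophagy and lysosome genes were more often higher than lower, 16 against 5 of 33 measured (median 0.32), and proteasome subunits were not. The initiating kinase Ulk1 rose 6.08-fold, Map1lc3b, which coats the autophagosome, 5.59-fold, the lysosomal membrane protein Lamp2 5.17-fold, and the proteases Ctsl and Ctsb 4.78-fold and 3.59-fold. Tfeb, the transcription factor of lysosomal genes, fell 2.44-fold and Gabarap 1.59-fold. Ulk1 (1.91), Lamp2 (1.13) and Ctsb (1.19) were higher in S-V12 than in V12. Of 37 proteasome subunits 5 were higher, 8 lower and 24 not called (median -0.19), where 12.0% of all clusters were higher and 12.8% lower. Psmd8, of the regulatory particle, rose 6.27-fold and the activator Psme4 2.84-fold, while the core subunit Psma7 fell 1.89-fold. In S-V12/V12, 12 of the 37 were lower and 2 higher.

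Several stress defence genes rose. Hmox1, haem oxygenase 1, was below background in CON (5.55, 4.70, 4.98 and 5.45) and read 12.14, 12.50, 11.72 and 12.21 in S-V12, at least 45.4-fold higher. Srxn1, which restores oxidised peroxiredoxins, rose at least 58.9-fold with S-V12 replicate 4 (11.02) some 2 log2 units under the other 3. Txnrd1 (thioredoxin reductase) rose 13.1-fold and Nfe2l2, which encodes NRF2, 5.56-fold, whereas superoxide dismutase Sod1 fell 2.48-fold and Prdx2 1.95-fold. Of 37 measured antioxidant genes 12 were higher and 8 lower (median -0.07). Among 45 chaperones 19 were higher and 7 lower, with Hspb1 up 10.8-fold, the endoplasmic reticulum chaperone Hspa5 9.07-fold and Bag3, which directs damaged filament proteins to autophagy, 4.65-fold. Of 34 genes of ATF4 and the unfolded protein response 24 were higher and 1 lower (median 1.32), the 1 being Vldlr, which became 2 without S-V12 replicate 3. Ppp1r15a (GADD34), the phosphatase subunit that lets translation resume, rose 20.4-fold, Sesn2 5.77-fold, Atf4 5.25-fold and Xbp1 4.49-fold. Atf4 itself was not called in S-V12/V12 (0.17, adjusted p = 0.651), while Ppp1r15a (1.76), Sesn2 (1.52) and Xbp1 (0.96) were higher in S-V12.

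Many genes that bring amino acids into the cell and load them on tRNA were higher. Slc7a5 (LAT1), the importer of leucine, was below background in CON (5.44, 5.28, 4.85 and 5.19) and read 11.54, 11.49, 10.77 and 10.23 in S-V12, at least 20.7-fold higher. S-V12/V12 was 3.86 (adjusted p = 6.42e-07), among the 10 highest differences in that contrast. Its partner chain Slc3a2 rose 9.21-fold, Slc7a6 39.0-fold and the glutamine importer Slc38a2 5.43-fold. Of 23 amino acid transporters 12 were higher and 2 lower, the 2 becoming 0 without S-V12 replicate 1, 1 without CON replicate 1, CON replicate 4, S-V12 replicate 3 or S-V12 replicate 4. All 15 of the 19 tRNA synthetases that were called rose (median of the 19, 0.87), Yars1 at least 4.84-fold, Iars1 3.89-fold, Wars1 3.87-fold and Aars1 3.67-fold, and 11 were higher in S-V12 than in V12. Wars1 was not called in V12/CON (0.04, adjusted p = 0.927).

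Most ribosome assembly genes rose, and most ribosomal proteins were not called. Of 38 nucleolar and ribosome biogenesis genes 31 were higher and 0 lower (median 1.27), the 0 becoming 1 without CON replicate 4, and 23 were higher in S-V12 than in V12. Ddx21, an RNA helicase of rRNA processing, read 10.17, 10.32, 10.27 and 10.27 in CON and 13.52, 13.14, 13.30 and 13.36 in S-V12, an 8.40-fold rise with little spread in either group. Wdr43 rose 9.49-fold, the rRNA methyltransferase Nop2 8.53-fold, the RNA polymerase I subunit Polr1a 5.17-fold, nucleolin (Ncl) 3.71-fold and Npm1 2.40-fold. The proteins of the ribosome itself had a median change of -0.43. Of 68 measured, 18 fell, 2 rose and 48 were not called in S-V12/CON. The fallen became 39 without CON replicate 1, 11 without CON replicate 2 and 6 under the methods' t-test (the study's own test, run here with Benjamini-Hochberg adjustment), and the risen became 1 under that test and without CON replicate 1, S-V12 replicate 1 or S-V12 replicate 3. Their medians on single arrays, taken against the CON mean, lay between -0.81 and 0.47 in CON and between -0.62 and -0.15 in S-V12. CON replicate 1 was the lowest of all 16 arrays, so the groups overlapped through it alone. In S-V12/V12, 37 of the 68 were lower and none higher (median -0.81), and in V12/CON 9 were higher and 0 lower (median 0.37). Rpl38 fell 3.01-fold, Rps28 2.27-fold and Rpl19 2.0-fold, each called in S-V12/V12 (-1.96, -1.0 and -1.25) and not in V12/CON. Rpl3 rose 4.42-fold.

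Most genes of the respiratory chain fell. The chain's complexes I to IV pass electrons from NADH and succinate to oxygen and complex V makes ATP. All 71 measured nuclear-encoded subunits and cytochrome c had an estimate below 0 in S-V12/CON, with a median of -1.05, and 57 of them were called lower and none higher. 36 fell by a factor of 2 or more. Complex I gave 27 of 32 lower (median -1.27) and complexes II to V with cytochrome c 30 of 39 (median -0.88), against 12.8% lower over all clusters. Under the methods' t-test these counts of lower genes were 18 and 21. The medians of the 71 on single arrays lay between -0.38 and 0.32 in CON and between -1.26 and -0.71 in S-V12, with no overlap, although CON replicate 1 was again the lowest CON array. In V12 they lay between -0.17 and 0.06 and in E-V12 between -0.55 and -0.29.

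Single subunits show the size of it. Ndufb3, an accessory subunit of complex I, read 16.55, 17.13, 16.80 and 16.51 in CON and 15.13, 15.10, 15.51 and 14.80 in S-V12, a 3.05-fold fall (-1.61 ± 0.19, adjusted p = 1.21e-06). Its V12/CON was 0.44 and not called, and S-V12/V12 was -2.05 (adjusted p = 6.42e-07). Ndufb7 fell 3.82-fold, Ndufa1 3.48-fold and Ndufb10 3.39-fold. In complex III, Uqcr10 fell 3.80-fold, Uqcr11 3.05-fold and Uqcrb 2.31-fold. In complex IV, Cox8b fell 2.95-fold, Cox6c 2.18-fold and Cox5a 2.13-fold, and in complex V Atp5mc2, of the membrane ring, 2.77-fold. Sdhd, which anchors complex II, fell 1.90-fold. The 14 that were not called were Ndufa10, Ndufb11, Ndufs1, Ndufv1, Ndufv2, Sdha, Sdhc, Uqcrc2, Cyc1, Cycs, Cox6a1, Cox6a2, Atp5f1a and Atp5f1b, several of them catalytic subunits (Sdha -0.13, adjusted p = 0.706, and Cycs -0.35, adjusted p = 0.226). Over the 71 the median was -0.12 for V12/CON but -1.0 for S-V12/V12, in which 51 were lower. Uqcr11 (-2.13), Ndufb3 and Atp5mc2 (-2.04) were among the 10 lowest differences in S-V12/V12.

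**Figure D4:**
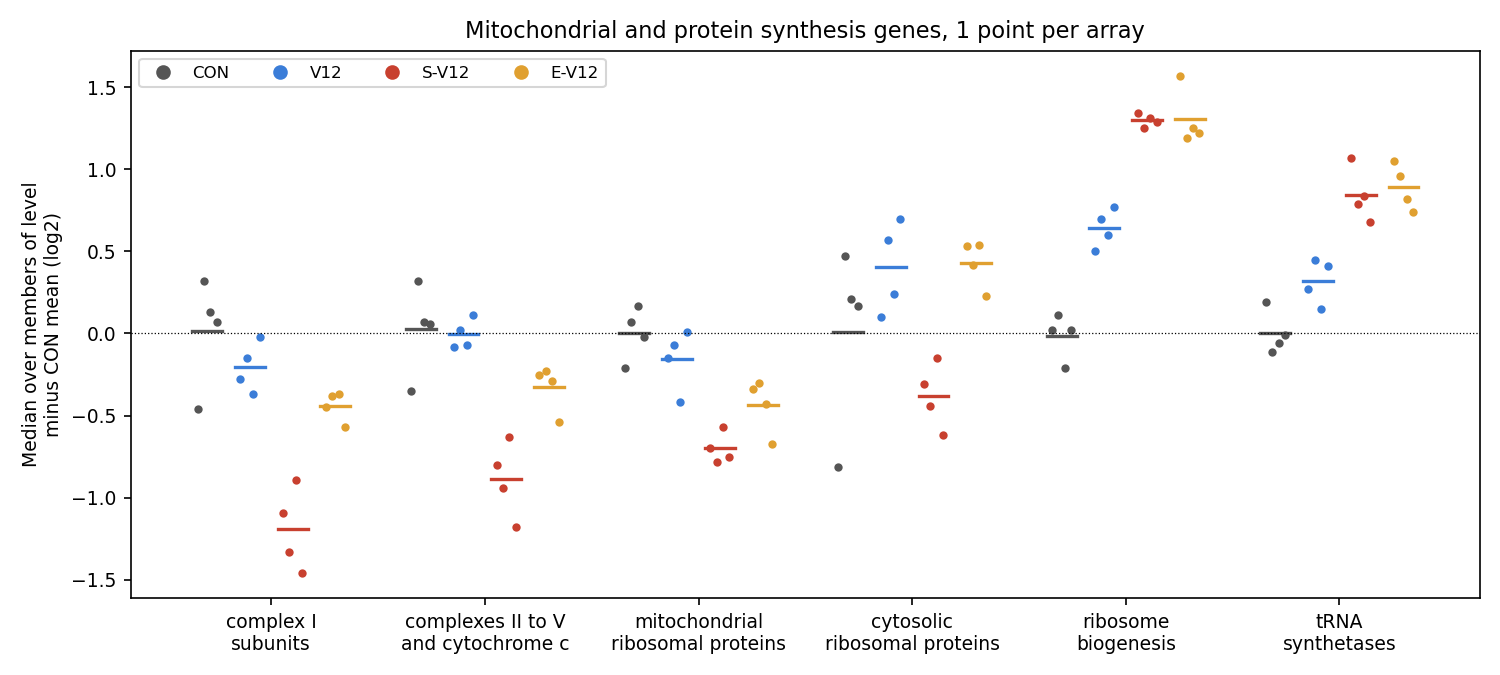
Median over the members of 6 gene lists of the level minus the CON mean (log2, vertical axis), 1 point per array, with group means as bars. The S-V12 points of both respiratory chain lists lie below those of the other 3 groups, and CON replicate 1 is the lowest CON point for these lists and for the cytosolic ribosomal proteins.

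Other mitochondrial genes were lower in part. Of 65 mitochondrial ribosomal proteins 37 were lower and 2 higher (median -0.77), with Mrps14 down 3.62-fold and Mrpl18 3.19-fold, and 25 were lower in S-V12 than in V12. One exception, chosen for mention after its value was seen, was Mrpl41, a mitochondrial ribosomal protein also known to promote cell cycle arrest, which read 8.39, 9.79, 9.61 and 8.52 in CON and 15.47, 15.61, 15.10 and 15.29 in S-V12, a 78.2-fold rise that was not called in S-V12/V12 (0.32). Of 30 genes of mitochondrial protein import 11 were lower and 0 higher, the 0 becoming 1 without CON replicate 1 or 2, with Tomm7 down 4.47-fold and Timm21 3.90-fold. The regulators above them divided. Ppargc1b fell at least 6.21-fold, Perm1, a muscle partner of PGC-1, at least 6-fold, the oestrogen-related receptor Esrrg 8.64-fold and the fatty acid sensor Ppara 4.39-fold. The related coactivator Pprc1 rose 10.1-fold, Ppard 7.48-fold and the nuclear respiratory factor Nrf1 2.47-fold, while Tfam, which maintains mitochondrial DNA, was not called (-0.33, adjusted p = 0.282). Of the 33 genes in this list 8 were higher and 12 lower. The S-V12/V12 differences of Ppargc1a (-0.75), Ppargc1b (-0.53), Perm1 (-0.24) and Esrrg (0.15) were not called.

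Genes of fuel use changed in both directions. The glucose carrier Slc2a1 (GLUT1) rose 15.7-fold, from 6.94, 5.72, 6.21 and 7.46 to 10.27, 10.86, 10.66 and 10.43, and the insulin-responsive carrier Slc2a4 (GLUT4) fell 2.39-fold, from 14.44, 13.80, 13.74 and 14.16 to 12.78, 12.97, 12.60 and 12.75. Slc2a1 was 3.19 higher in S-V12 than in V12 and not called in V12/CON (0.78, adjusted p = 0.118). Pfkfb3, which makes the activator of phosphofructokinase, rose 74.7-fold and Pfkfb1 fell 10.1-fold. Hexokinase 2 (Hk2) rose 2.35-fold, whereas the later enzymes Pgam2 and Pgk1 fell 2.81-fold and 2.05-fold. Hif1a rose 3.61-fold. Of 40 measured genes of glycolysis, glycogen and glucose uptake 8 were higher and 12 lower, against 12.0% and 12.8% of all clusters. For insulin action, Irs1 fell 5.44-fold and Grb14 6.0-fold, and Igf1r rose 6.25-fold. Of 49 genes of fatty acid use 12 were higher and 15 lower, against the same 12.0% and 12.8%. The lipases Pnpla2 and Pnpla7 rose 4.76-fold and 4.72-fold, Cpt1a rose 3.29-fold and the electron carrier Etfb fell 3.31-fold.

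Several genes of membrane excitability were lower in S-V12/CON, and in V12/CON too. Clcn1 read 12.46, 10.91, 10.55 and 11.80 in CON and 7.79, 6.77, 8.05 and 7.15 in S-V12, and V12/CON was -4.17 against -3.99 in S-V12/CON. Kcnj2, the inward rectifier that sets the resting potential, fell 7.89-fold, Kcna7 3.63-fold, Kcnj11, of the ATP-sensitive channel, 3.48-fold and Atp1b1, a sodium pump subunit, 3.85-fold. The sodium channel subunit Scn3b rose at least 11.8-fold, with S-V12/V12 at 3.85 (adjusted p = 4.23e-07) and V12/CON at 0.73 (adjusted p = 0.172). The main channel gene Scn4a had -0.69 and was not called (adjusted p = 0.0509, and between 0.0276 and 0.263 over the alternatives). Of 27 measured channels and pumps 4 were higher and 11 lower (median -0.70), V12/CON gave 3 and 14 (median -0.84), and S-V12/V12 gave 4 and 1. Of 28 calcium handling genes 3 were higher and 9 lower, against 12.0% and 12.8% of all clusters. Hrc, which binds calcium in the sarcoplasmic reticulum, fell 4.38-fold and Stac3, which couples excitation to calcium release, 3.85-fold, both lower than in V12 too (-1.28 and -1.26), and the calcium pump inhibitor Pln (phospholamban) rose 6.08-fold.

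Genes of the synapse and of muscle identity gave a mixed picture that holds rises known from denervated muscle. Musk, the receptor kinase that organises the neuromuscular junction, read 8.20, 8.04, 7.06 and 6.93 in CON and 12.78, 12.69, 11.56 and 12.47 in S-V12 (28.2-fold). The acetylcholine receptor subunits Chrna1 and Chrnd rose 16.8-fold and 3.04-fold, and Musk (1.68) and Chrna1 (1.93) were higher in S-V12 than in V12. Myog rose 17.0-fold, Myf5 14.0-fold and Myf6 13.8-fold, while Myod1 was below background in both groups. Sema6c fell 10.1-fold, Hdac9 6.54-fold, Vgll2 4.55-fold and Sox6, a repressor of slow-fibre genes, 3.59-fold. Of 24 synaptic and denervation genes 5 were higher and 6 lower, and of 23 myogenic and muscle transcription genes 6 and 5. Over all clusters 12.0% were higher and 12.8% lower. Among 10 slow-fibre contractile genes 4 fell and none rose, by less than a factor of 2 for Tnni1, Tnnt1 and Tnnc1. Of 36 other sarcomere genes 7 were higher and 8 lower. Tmod4, which caps thin filaments, fell 5.57-fold, from 15.06, 15.54, 15.26 and 15.55 to 12.68, 13.06, 13.11 and 12.64, with V12/CON at -0.36 and S-V12/V12 at -2.12 (adjusted p = 4.23e-07). Fhl3 fell 9.97-fold and Smpx, a small protein of the costamere, 2.86-fold. In the dystrophin complex and membrane repair 7 of 18 fell, Sgcd 4.38-fold, Sspn 3.99-fold, Cav3 3.01-fold and the repair protein Trim72 2.70-fold, against 12.8% lower over all clusters. The 3 higher were Anxa2 (2.0), dystrophin itself (Dmd, 0.85) and dysferlin (Dysf, 0.76), a count that became 1 without CON replicate 2, CON replicate 3, S-V12 replicate 1, S-V12 replicate 3 or S-V12 replicate 4.

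Matrix genes included several that separated S-V12 from V12. Thbs1, thrombospondin 1, read 4.51, 6.02, 6.02 and 6.46 in CON (3 arrays below background) and 14.62, 11.27, 11.40 and 11.10 in S-V12. That is 81.3-fold higher, with S-V12 replicate 1 more than 3 log2 units above the others. S-V12/V12 was 4.60 (adjusted p = 3.82e-05), and V12/CON 1.75 was not called (adjusted p = 0.0677). The proteoglycan Vcan, below background in CON, rose at least 3.13-fold, the hyaluronan receptor Cd44 8.42-fold and fibronectin (Fn1) 3.69-fold, all higher in S-V12 than in V12 (3.43, 2.49 and 2.06) and none called in V12/CON. The protease Adamts1 rose 13.2-fold and the integrin Itgb1 6.63-fold. The fibrillar collagen Col1a1 was not called (-1.04, adjusted p = 0.173) and nor was Col3a1 (-1.22, adjusted p = 0.169). Of 51 matrix genes 18 were higher and 10 lower, against 12.0% and 12.8% of all clusters. Among other cell markers, smooth muscle and pericyte genes were lower in 4 of 10, with Lmod1 (also a striated muscle gene) down 7.43-fold and Tagln 4.44-fold, and the 0 higher becoming 1 without CON replicate 1 or S-V12 replicate 3. The log2 of their summed signal lay between 14.3 and 15.1 in CON and between 12.1 and 12.6 in S-V12. Of 11 fibroblast markers 2 were higher, Pdgfra (4.76-fold) and Dcn (1.57 on the log2 scale), and 4 were lower, Lum (-1.24), Pi16 (-0.71), Mfap5 (-1.28) and Col14a1 (-1.26), with a median of -0.71. The 4 became 2 without S-V12 replicate 1, S-V12 replicate 3 or S-V12 replicate 4, and 0 under the methods' t-test. Cd93, of endothelium and myeloid cells, was below background in CON and rose at least 6.16-fold, with S-V12/V12 at 3.93 (adjusted p = 1.89e-07). Of 11 endothelial markers 2 were higher, 1 was lower and 8 were not called (median -0.22). Leaving out any single array kept each of the higher and lower counts between 1 and 2. The endothelial markers Kdr (-0.49) and Cdh5 (-1.02) were not called. Of 17 red cell genes 7 were lower and 10 not called (median -0.55), 1 was lower under the methods' t-test, and the arrays of CON and S-V12 did not overlap at 2 of the 17. Hba-a1 read 13.37, 15.55, 14.86 and 14.41 in CON and 13.27, 13.42, 11.44 and 12.69 in S-V12, so that the lowest CON and the highest S-V12 arrays overlapped.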

How the data were processed

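Diaphragm RNA of 16 rats was hybridised to Clariom S arrays, 1 array per rat and 4 per group. The authors summarised and normalised the probes in the Transcriptome Analysis Console by SST-RMA and deposited log2 signals. In the files the highest values tie at each array's maximum, and background was judged from the highest background control entry of each array. Of 24834 rows, 1646 control probe sets were left out and 23188 transcript clusters kept, of which 15049 carried 1 gene symbol. Where a symbol had several clusters, the one with the highest mean signal was used.

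Group means of all 4 groups were fitted to the log2 values with limma 3.58.1 (R 4.3.3; lmFit and eBayes, two-sided), p-values were adjusted by Benjamini-Hochberg over all clusters, and calls were made at 0.05. Where every array of 1 group was below background, "at least" gives the bright group's mean over the other group's background. Where only some arrays of a group were below it, the fold is that of the group means and is not bounded. Simulated data with the same clusters and spread gave back 61% of 100 changes of 1 log2 unit and 99% of 100 changes of 2, with 11 false calls among 23188. No other cluster differed between groups in the simulation, whereas 5744 were called in S-V12/CON. These shares therefore need not hold for the data. Named genes were the 15 highest and 15 lowest changes with a symbol and no overlap between groups (placeholder symbols left out), members of the gene lists, first by adjusted p, genes the study names, and the 10 highest and 10 lowest S-V12/V12 differences called in both contrasts. The members and gene lists were chosen with earlier results of these data known. List entries that the array does not name were not analysed here. No set test was run, and lists are described by counts and medians.

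Alternatives were limma on the 2 groups compared, a trended robust variance, array weights, the lowest 25% of clusters left out, array median centring, quantile normalisation, 1 cluster per symbol, a fold of 2 beside the adjusted p, the methods' t-test, the replicate number as a block, each array left out, and, chosen after seeing the data, clusters at an array's ceiling left out. Upstream sequences are RefSeq's on GRCr8, matched by symbol. With 4 rats per group, p-values measure the spread between animals, and that number limits the precision.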

Additional observations from a re-analysis of the deposited data

Results flagged for a closer look

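In 492 groups of 4 arrays, the CON and S-V12 values of 246 genes, 33 held an array whose gap to its nearest neighbour took up nearly the whole range of the group (past Dixon's critical value), where chance gives about 1 group in 20. CON replicate 1 accounted for 8 and CON replicate 4 for 7 of the 33, and S-V12 replicates 1 to 4 for 5, 3, 4 and 4.

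CON replicate 4 stood high for Ankrd1 (10.40), Egr1 (9.98), Atf3 (10.73) and Chrna1 (9.30), and low for Ppargc1a (12.30), Fkbp5 (8.74) and Adamts1 (7.48). For Ankrd1, Egr1, Atf3, Chrna1 and Ppargc1a this array lay nearer to the S-V12 values than the other CON arrays did, and for Fkbp5 and Adamts1 farther from them. CON replicate 1 stood high for Zfp36 (8.31), Per1 (11.87), Glul (17.08), Lifr (12.89), Trim55 (11.45) and Scn4a (14.51), and low for Uqcr10 (15.05) and Lyve1 (8.06). CON replicate 2 was low for Ccn1 (7.68) and CON replicate 3 for Tnnt1 (18.21).

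S-V12 replicate 1 was high for Thbs1 (14.62), Atp1b4 (5.24) and Nrf1 (11.18) and low for Jun (10.80) and Irs1 (8.13). S-V12 replicate 2 was high for Hspb3 (6.01) and Trim35 (8.03) and low for Rpl3 (10.83). S-V12 replicate 3 was high for Uqcr10 (13.80), Atp1b1 (10.37) and Sema6c (7.38) and low for Lamp2 (16.47). S-V12 replicate 4 was low for Csrnp1 (8.42), Srxn1 (11.02) and Pfkfb3 (14.04) and high for Scn4a (13.01). Of these genes Scn4a was not called in S-V12/CON, and the others kept their call whichever of the 16 arrays was left out. What set these arrays apart was not tested.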

How the results depend on the processing

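No named gene changed direction under any alternative, and 227 of the 232 called among 246 kept their call throughout. These genes were picked from the same data, many for large changes or low adjusted p, so this share does not describe all clusters. The exceptions among the 232 were Slc30a1 and Psenen, and Jun (adjusted p = 0.0571), Atf3 (0.178) and Hba-a1 (0.114) under the methods' t-test alone. Besides the left-out arrays given above, Slc30a1 lost its call under the methods' t-test (adjusted p = 0.197). Psenen lost its call under that test (0.232), with the 2 groups alone (0.0929), under centring (0.0574) and with the replicate block (0.0549). Of the 14 not called, 5 gained a call under some alternative. Scn4a and Kcnma1 were called with trended robust variances (adjusted p = 0.0359 and 0.0442), low clusters left out (0.041 and 0.0433), quantile normalisation (0.0303 and 0.0217), 1 cluster per symbol (0.0454 and 0.0477) and some arrays left out (lowest 0.0276 and 0.0166). Cdh5 was called with the 2 groups alone (0.00254), the methods' t-test (0.0198) and V12 replicate 1 or 4 left out, Col1a1 with the 2 groups alone (0.0451), and Myod1 without CON replicate 3 (0.0422) or S-V12 replicate 3 (0.0454). Adding a fold of 2 to the adjusted p left 1576 higher and 1382 lower clusters in S-V12/CON. The methods' t-test after Benjamini-Hochberg gave 1904 lower clusters in S-V12/CON, 682 higher and 800 lower in V12/CON, and 1838 lower in E-V12/CON, where limma gave 2970, 1780, 2011 and 2924, and 1 cluster per symbol gave 984 lower in S-V12/V12, where fewer clusters were tested. With single arrays left out, S-V12/CON ranged from 2445 to 2848 higher and 2563 to 3010 lower, S-V12/V12 from 1485 to 2070 and 1162 to 1773, V12/CON from 1451 to 1770 and 1586 to 2027, E-V12/CON from 2216 to 2557 and 2451 to 2934, and the study's thresholds in S-V12/CON from 1518 to 1701 and 1370 to 1571. Another scaling moved the median of all clusters in S-V12/CON from -0.04 to -0.02 (centring) or -0.03 (quantile), and the share of higher calls from 48.3% to 50.3% or 46.3%. For S-V12/V12, centring took the counts from 1866 higher and 1544 lower to 2245 and 1206.

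Replicate numbers are shared by the groups but do not pair the animals: deviations of same-numbered CON and S-V12 arrays correlated between -0.0389 and 0.0189. With the number as a replicate block the counts were 2761 higher and 2920 lower in S-V12/CON, and the block changed the call of 3 named genes, losing Psenen (adjusted p = 0.0549) and gaining Scn4a (0.0386) and Kcnma1 (0.0324). Counts over lists of genes called lower dropped under the methods' t-test, from 18 to 6 for cytosolic ribosomal proteins, 15 to 7 for fatty acid use, 12 to 6 for cyclic nucleotide and adrenergic signalling, 10 to 4 for matrix genes, 9 to 5 for calcium handling, 8 to 5 each for proteasome subunits, antioxidant genes and other sarcomere genes, and 7 to 1 for red cell genes. Complex I subunits went from 27 to 18, complexes II to V with cytochrome c from 30 to 21, and mitochondrial ribosomal proteins from 37 to 28. Signal near background, where most clusters lie, limits the folds of low genes, and the ceiling limits those of Mt2A.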

Other observations

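Of 36 measured apoptosis regulators 9 were higher, 3 lower and 24 not called (median 0.09), and 5 were higher under the methods' t-test. The 3 lower became 1 without CON replicate 2, CON replicate 3, S-V12 replicate 2 or S-V12 replicate 3. Bcl2l1, which encodes the anti-apoptotic protein Bcl-xL, read 9.71, 9.11, 9.33 and 10.03 in CON and 15.37, 15.50, 15.05 and 15.35 in S-V12, 54.6-fold higher, and Mcl1, of the same family, rose 6.43-fold. Both were also higher in S-V12 than in V12 (1.99 and 1.56). The pro-apoptotic genes Bak1 and Bax passed the test as well, Bak1 2.25-fold and Bax from a CON level below background. Mapk14, the stress kinase p38 alpha, rose 22.3-fold, from between 12.02 and 12.24 to between 16.51 and 16.80, where its phosphatase Dusp10 fell. Among phosphodiesterases, which break down cyclic AMP, Pde4b rose 37.3-fold and Pde4d 6.50-fold. Of the 40 genes of cyclic nucleotide and adrenergic signalling 4 were higher and 12 lower, against 12.0% and 12.8% of all clusters. Of 20 RNA-binding regulators of mRNA decay and translation 12 were higher and 3 lower (median 0.88), with Zfp36l2 up 40.3-fold. In the clock, of which 18 genes were measured, 7 were higher, among them Nfil3 (14.3-fold) and Cry2 (4.39-fold). None was called lower, and 1 was without CON replicate 2 or CON replicate 3. The time of day at which each diaphragm was taken was not given in the sources used here.

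Of the genes that the study's text names, 76 were measured, a list drawn from these samples and so no independent evidence of direction. In S-V12/CON 47 were higher, 19 lower and 10 not called. Those not called included Insr (0.39), Srf (0.07), Map3k7 (0.45), Dnm1l (-0.07), Alpl (0.16), Nr4a1 (-1.32, adjusted p = 0.0914), Casq2 (-0.29) and Kcnma1 (-0.70, adjusted p = 0.0535). Called ones described nowhere else were Sfrp1 (2.66), Cebpb (2.46), Rock2 (1.89), Lcn2 (1.87), Smad3 (1.47), Crebbp (1.45), Pik3r1 (1.45), Prkaa1 (1.26), Eng (0.91) and Jund (0.82), all higher, and Ncf1 (-2.61), Adra1a (-1.90), Rgs2 (-1.58), Pkp2 (-1.46), Uqcrh (-1.06), Prkg1 (-0.73) and Cox5b (-0.69), all lower.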
